A study of Mus musculus with 6 samples.

Results

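The alpha class glutathione transferase genes Gsta1, Gsta2, Gsta3 and Gsta4 were examined in mouse small intestinal mucosa. They were taken by gene symbol, as close paralogs of 1 family, and make up 4 of the 38561 genes counted in each library. The libraries were oligo(dT)-selected RNA of 3 pools labelled Rbm47-IKO, with intestine-specific deletion of the RNA-binding protein gene Rbm47, and 3 pools labelled wt. By the labels, each pool combined RNA from 3 C57BL/6J mice of 8 to 12 weeks and of both sexes, so that a pool and not a mouse is the replicate. The study's text gives wider ranges for the mice per pool and their age, names the tissue as jejunum, names Rbm47 fl/fl mice as controls where the labels name wild type, and drives the deletion with a constitutive Vil1-cre transgene active in the epithelium of small and large intestine. The transgene does not target the other cell types of the scraped mucosa.

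Alpha class enzymes are cytosolic dimers that join glutathione to electrophilic compounds, which are then exported from the cell, and some also reduce lipid hydroperoxides. They are abundant in liver and in the absorptive epithelium of the gut, where dietary and oxidative electrophiles arrive. The class is known for induction by the transcription factor NRF2, which acts through antioxidant response elements, and by xenobiotic receptors. Gsta4 encodes the enzyme with a marked preference for 4-hydroxynonenal, an aldehyde formed by lipid peroxidation. Gsta3 encodes the mouse enzyme known for conjugating the epoxide of aflatoxin, and Gsta1 and Gsta2 encode a pair of nearly identical inducible enzymes.

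The targeted gene did not fall with the label. Rbm47 had 603, 625 and 620 CPM (counts scaled to a common library size, adjusted by the TMM method) in the pools labelled Rbm47-IKO against 460, 450 and 472 CPM in the wt pools, a log2 fold change of 0.42 (SE 0.10, edgeR adjusted p = 0.0751). A count over the whole gene does not separate the deleted part from the rest. Every direction given here is therefore for the pools as labelled. The depth was 31560320 to 38951830 counts a pool, and 16425 genes had enough counts to be tested. Of these, 2.7% passed an adjusted p of 0.05 or less in edgeR's quasi-likelihood test, 1.45% higher and 1.25% lower in the pools labelled Rbm47-IKO. The summed enterocyte markers overlapped between groups, at 57567 to 63525 CPM in the pools labelled Rbm47-IKO and 58840 to 64908 in the wt pools. Of the 11 enterocyte genes 7 had a positive log2 fold change, where 49.3% of all genes tested had. With no overlap, 2 were higher, Fabp2 (0.51) and Anpep (0.52), where 11.7% of all genes tested were. Apob (-0.87) was lower with none, at 9864 to 10841 CPM against 14903 to 22119, a large part of each sum. The overlap of the enterocyte sums rests in part on Apob and does not show that enterocyte content was alike between groups. The ileal sum overlapped as well, at 8351 to 8709 and 7351 to 8478 CPM, but 8 of its 10 tested genes had a positive log2 fold change, where 49.3% of all genes tested had, and 4 were higher with no overlap, where 11.7% were. The ileal values ran from -0.47 for Slc10a2 to 1.93 for Fabp6. Of the 9 tested proximal markers 7 had a positive value, 3 were higher with no overlap and 1, Apoa4 (-1.01), was lower with none, where 11.6% of all genes tested were. Slc10a2, Fabp6 and Apoa4 were named after their values were seen and did not pass (edgeR adjusted p = 0.864, 0.201 and 0.0802). The same holds for Fabp2, Anpep and Apob as named here (edgeR adjusted p = 0.178, 0.107 and 0.0583). The part of these enterocyte and region markers in the alpha class result was not tested. The pools also differed in ways the labels do not give. The summed smooth muscle markers reached 3302 CPM in Rbm47-IKO pool 3 and 2803 in wt pool 2, against 90.7 to 586 in the other pools. The summed pancreas markers were 23.6 CPM in Rbm47-IKO pool 3 and 2.22 to 3.64 in the other pools. None of the 8 Paneth or the 8 B and plasma cell genes had a positive log2 fold change (medians -0.58 and -0.60), with sums that overlapped between groups. The part of these cell types in the alpha class result was not tested. Xist, the RNA of the silenced X chromosome, was 75.6, 258.1 and 40.3 CPM in the pools labelled Rbm47-IKO and 1.09, 150.03 and 0.686 in the wt pools. The low Xist of wt pools 1 and 3, which also had the highest Y-linked sums, goes against the label of both sexes for those pools.

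The coding sequences show how far reads can tell the members apart. The first 30 coding bases of each member are given below in GRCm38 from the GENCODE M21 transcripts, 5′ to 3′ on the coding strand, with capitals at the bases that differ from Gsta1.
Gsta1 (chr9:78232240-78232269, plus strand): atggccgggaagcccgtgcttcactacttc
Gsta2 (chr9:78341887-78341916, minus strand): atggccgggaagcccgtgcttcactacttc
Gsta3 (chr1:21249772-21249801, plus strand): atggcGgggaagccAgtCcttcaTtacttT
Gsta4 (chr9:78198290-78198319, plus strand): atggcAgCCaaAccTAAgctCTactacttT
Gsta1 and Gsta2 were identical over this stretch, which lies in exon 2 of each gene, whereas Gsta3 differed at 5 bases and Gsta4 at 10. Over the whole coding sequence, Gsta1 shared 97.6% of aligned bases with Gsta2, 74.1% with Gsta3 and 66.8% with Gsta4, and Gsta3 shared 66% with Gsta4. All 4 members have 6 coding exons. Of the distinct 50-base stretches in the annotated transcripts, 90.5% in Gsta1 and 49.8% in Gsta2 also occur in another gene, against 0.273% in Gsta3 and 0% in Gsta4. The paralog sharing most with Gsta1 is Gm3776, with 75.7% of the stretches and 99.7% coding identity, and no count of it was used here. Reads from Gm3776 may therefore be in the Gsta1 count or absent from it. Counts of Gsta1 and Gsta2 are therefore uncertain, since reads from these near copies could have been dropped or moved between genes, while those of Gsta3 and Gsta4 are nearly free of this limit.

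Gsta1, Gsta3 and Gsta4 were higher in each pool labelled Rbm47-IKO (by label only, since Rbm47 had not fallen there) than in any wt pool, with fitted means 3.51 to 4.49 times apart. Gsta2 was near the limit of detection. Gsta1, Gsta3 and Gsta4 passed the filter on low counts in all 6 pools, with at least 96 counts in each, and all of these 3 were called higher, where 1.45% of the genes tested were. The groups did not overlap for any of the 4 members, where 11.7% of the genes tested were higher with no overlap and 23.3% had none in either direction.

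Gsta4 (ENSMUSG00000032348, GRCm38 chromosome 9, 78191966 to 78209348, plus strand), the enzyme for lipid aldehydes, had the most counts. It had 39.3, 61.8 and 65.7 CPM in Rbm47-IKO pools 1, 2 and 3 and 11.8, 21.9 and 11.1 CPM in the wt pools. The lowest pool labelled Rbm47-IKO was 1.8 times the highest wt pool. The means were 55.6 ± 14.2 (SD, n = 3 pools) and 14.9 ± 6.03 (SD, n = 3), a log2 fold change of 1.90 (SE 0.31, edgeR adjusted p = 0.0258). Of the 16425 genes tested, it ranked 52 by log2 fold change among higher genes.

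Gsta3 (ENSMUSG00000025934, chromosome 1, 21240589 to 21265361, plus strand), known for aflatoxin conjugation, lies apart from the others and had the largest log2 fold change of the 3 tested members. Its CPM was 10.1, 18.7 and 20.2 in the pools labelled Rbm47-IKO and 3.32, 4.93 and 2.63 in the wt pools. The groups were 2.05 times apart at their nearest pools. Means of 16.3 ± 5.44 (SD, n = 3) and 3.63 ± 1.18 (SD, n = 3) gave a log2 fold change of 2.17 (SE 0.33, edgeR adjusted p = 0.0214), rank 30. With the pool numbers as a replicate block the value was 2.15 and Gsta3 was not called (edgeR adjusted p = 0.053). That fit called 100 genes in all, against 443 without the block.

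Gsta1 (ENSMUSG00000074183, chromosome 9, 78230656 to 78242684, plus strand) had 12.3, 18.8 and 17.2 CPM in the pools labelled Rbm47-IKO and 2.85, 6.64 and 4.23 CPM in the wt pools. Again the groups were separate, with 1.85 times between the nearest pools. Means were 16.1 ± 3.38 (SD, n = 3) and 4.57 ± 1.92 (SD, n = 3), a log2 fold change of 1.81 (SE 0.32, edgeR adjusted p = 0.034), rank 64. With Gsta1 and Gsta2 summed to 1 row, the log2 fold change was 1.83 (edgeR adjusted p = 0.0322).

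Gsta2 (ENSMUSG00000057933, chromosome 9, 78331018 to 78355788, minus strand), the near copy of Gsta1, had 4, 26 and 10 counts in the pools labelled Rbm47-IKO and 2, 1 and 2 counts in the wt pools. All wt pools were at or under the floor of 3 counts, and 26 of the 40 counts in the pools labelled Rbm47-IKO came from pool 2. Summed over pools and scaled by library size, the ratio was 8.25 (95% exact interval 3.26 to 26.8), and 4.51 (1.54 to 16.0) without Rbm47-IKO pool 2. These intervals cover counting error only. Gsta2 did not pass the filter. Without a filter beyond 1 count, its fitted log2 fold change of 2.93, which depends on the prior count, had an edgeR adjusted p of 0.11, and 0.981% of the 26093 genes then tested were called higher. Gm10639, another alpha class relative, at chromosome 9, 78289923 to 78305525, had 9, 8 and 12 counts against 4, 3 and 1, a ratio of 3.74 (95% exact interval 1.67 to 9.46). That interval also covers counting error only. In the fit without a filter beyond 1 count, Gm10639 had a log2 fold change of 1.87 and was not called (edgeR adjusted p = 0.258).

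**Figure D1:**
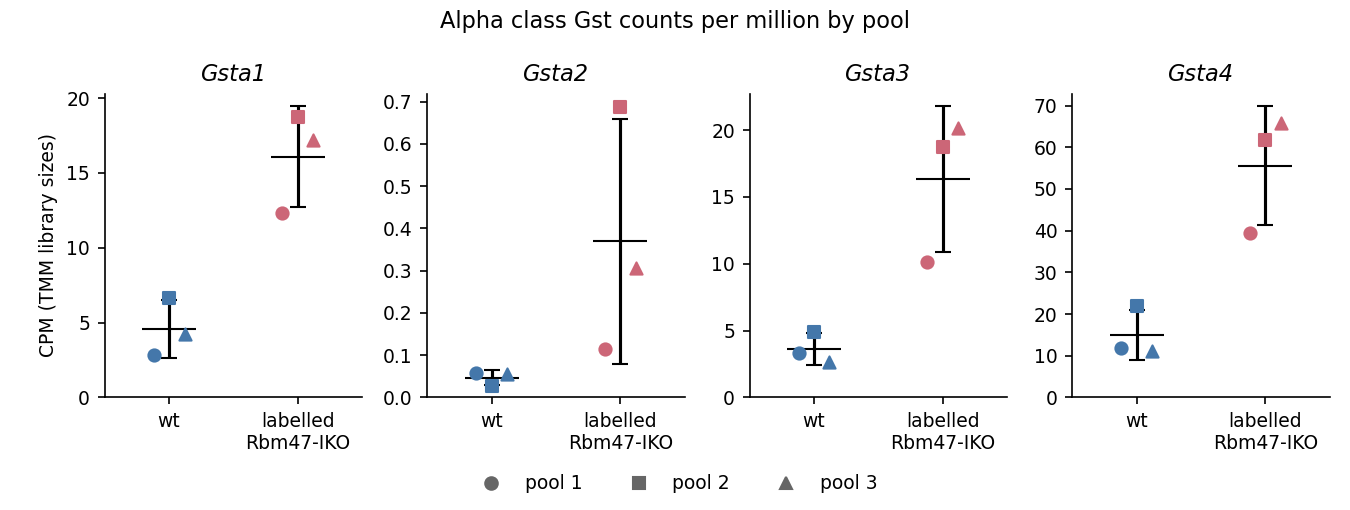
CPM of Gsta1, Gsta2, Gsta3 and Gsta4 (vertical axes, each from 0 and on its own scale) in the 3 wt pools and the 3 pools labelled Rbm47-IKO. Points are pools, horizontal bars are means and error bars are SD over 3 pools. No wt pool reaches a pool labelled Rbm47-IKO, and Gsta2 stays below 0.7 CPM.

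The members shared part of their order within groups. Rbm47-IKO pool 1 was the lowest of its group for all 4 members, and wt pool 2 was the highest of its group for Gsta1, Gsta3 and Gsta4 but the lowest for Gsta2, where it had 1 count. In log2 CPM, wt pool 2 lay above its group's mean by 0.62 for Gsta1, 0.49 for Gsta3 and 0.62 for Gsta4. That pool was also the wt pool with the most smooth muscle marker counts and the most Xist. With the summed smooth muscle markers as a covariate, the log2 fold changes were 1.69, 2.002 and 1.74 for Gsta1, Gsta3 and Gsta4, and all 3 were called (edgeR adjusted p = 0.0027, 0.0034 and 0.0016). With the summed Y-linked genes as a covariate they were 1.57, 1.96 and 1.69, and none of the 3 was called (edgeR adjusted p = 0.086, 0.0781 and 0.0723). Of the 16425 genes tested, 711 were called with the smooth muscle covariate and 59 with the Y-linked covariate, against 443 with neither. The Y-linked sum was 138.6, 53.0 and 143.7 CPM in the pools labelled Rbm47-IKO and 215.4, 87.9 and 220.3 in the wt pools.

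The direction was kept without any 1 pool, but most of the calls were not. Over all genes tested, the fits without 1 pool called 0 to 431, against 443 with 6 pools. Gsta4 was called only without wt pool 2 (edgeR adjusted p = 0.0124) and had 0.0635 to 0.135 in the other 5 such fits. Gsta3 was called only without wt pool 2 (0.0221) or Rbm47-IKO pool 1 (0.0399), and had 0.0585 to 0.122 otherwise. Gsta1 was called only without wt pool 2 (0.0167) or wt pool 1 (0.049), and had 0.0834 to 0.183 otherwise. The log2 fold changes stayed between 1.57 and 2.46 for these 3 genes in the 6 fits that leave out 1 pool.

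**Figure D2:**
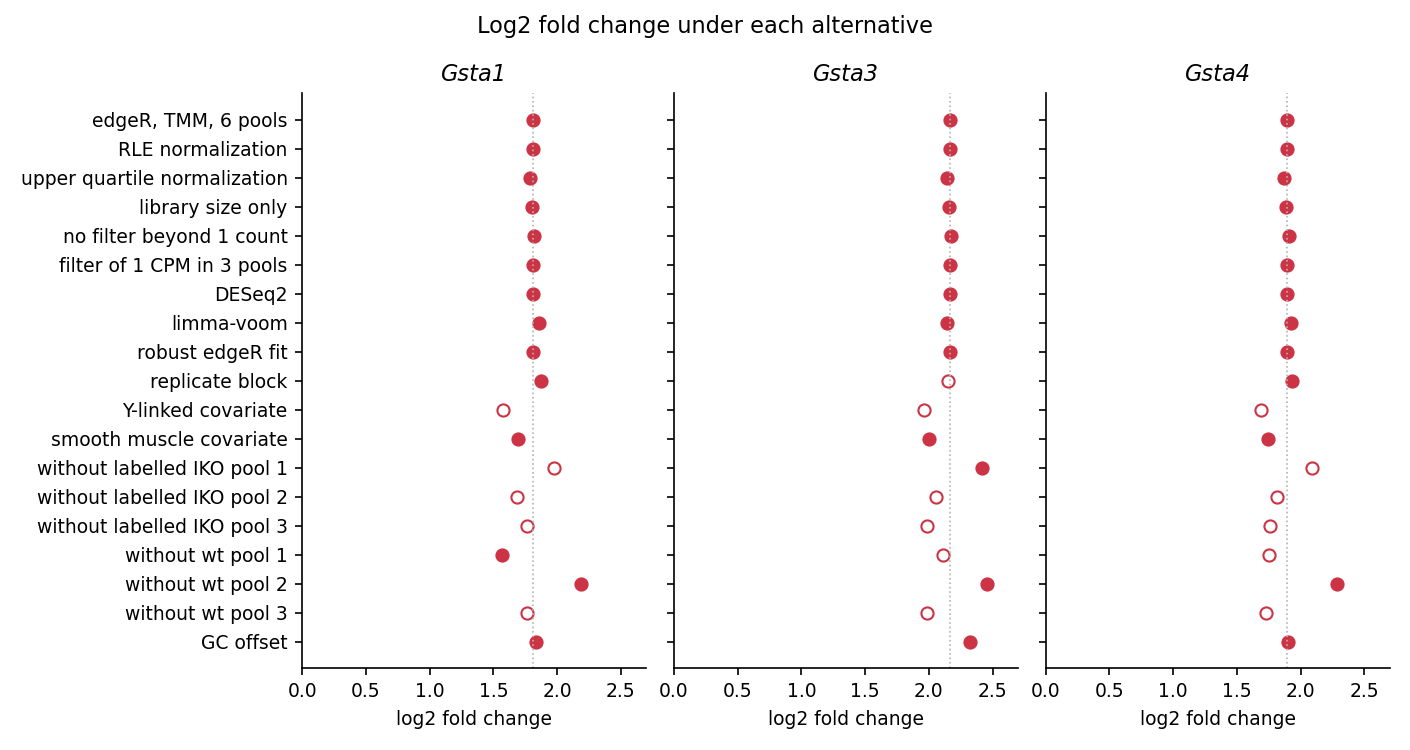
Log2 fold change, pools labelled Rbm47-IKO minus wt, of Gsta1, Gsta3 and Gsta4 (horizontal axes) under each alternative (rows). Filled points passed an adjusted p of 0.05 or less and open points did not, and the dotted line is the value with edgeR, TMM and 6 pools. All values lie between 1.57 and 2.46, and most open points are fits without 1 pool.

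Levels were compared between members per kilobase of exonic length. In the pools labelled Rbm47-IKO the mean level was 58.1 ± 14.9 CPM per kilobase for Gsta4, 16.8 ± 3.53 for Gsta1, 11.7 ± 3.91 for Gsta3 and 0.314 ± 0.247 for Gsta2 (SD, n = 3). The wt pools had the same order at lower levels, with 15.6 ± 6.30, 4.78 ± 2.01, 2.61 ± 0.845 and 0.0397 ± 0.0151 (SD, n = 3). Gsta1 and Gsta3 were neighbours whose ranges overlapped in both groups, although Gsta1 was above Gsta3 in 6 of 6 pools. Gsta4 exceeded Gsta1, and Gsta3 exceeded Gsta2, with no overlap in either group. These levels divide by the full exonic length. Of the 50-base stretches, 90.5% in Gsta1 and 49.8% in Gsta2 occur in another gene, against 0.273% in Gsta3 and 0% in Gsta4. Reads dropped or moved between such copies would change the levels of Gsta1 and Gsta2, so that the order holds for these counts only.

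The make-up of the family was compared next, as the share of each member. Gsta4 held 66.8% ± 0.997 of the summed level per kilobase in the pools labelled Rbm47-IKO and 67.5% ± 2.59 in the wt pools (SD, n = 3 each, exact permutation p = 0.7, two-sided). Gsta1 held 19.6% and 20.8% (exact permutation p = 0.8), and Gsta3 13.3% and 11.5% (exact permutation p = 0.2). The shares carry the same limit as the levels, since they rest on Gsta1 and Gsta2 as counted. The log2 ratio was compared within pools for 6 pairs of members, and the groups overlapped in every pair. The difference was 0.22 for Gsta3 over Gsta4, with pool values of -1.96, -1.72 and -1.70 against -1.83, -2.15 and -2.07 (exact permutation p = 0.2, 0.72 adjusted over 6 pairs). It was -0.28 for Gsta1 over Gsta3 (exact permutation p = 0.4) and -0.057 for Gsta1 over Gsta4 (exact permutation p = 1). With 3 pools against 3 an exact p cannot go below 0.1, so that these values do not show that the members changed alike.

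**Figure D3:**
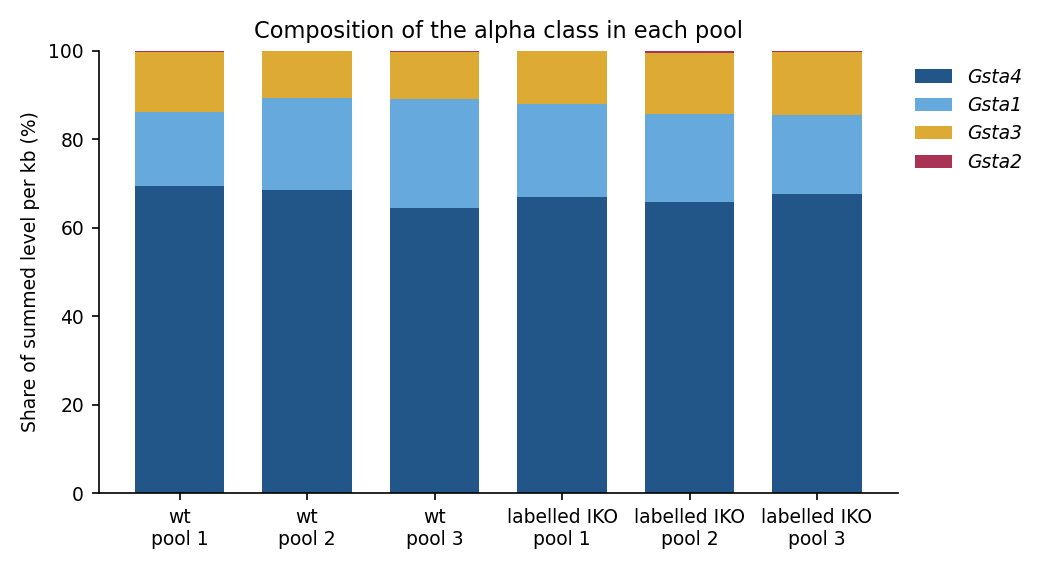
Share of each member in the summed level per kilobase of the 4 alpha class genes (vertical axis, percent) in each pool. Gsta4 holds 64.6% to 69.4% in every pool, Gsta3 10.5% to 14.3%, and Gsta2 under 0.6%. The shares depend on how reads shared between near copies were counted.

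Summed over the 4 members, the CPM was 61.9, 99.9 and 103.4 in the pools labelled Rbm47-IKO and 18.0, 33.5 and 18.0 in the wt pools. The groups did not overlap, and the means were 88.4 ± 23.1 and 23.2 ± 8.92 (SD, n = 3, exact permutation p = 0.1, two-sided, the smallest possible). The alpha class genes of the tables, Gm10639 included, were also summed to 1 row of the edgeR fit, which does not depend on how reads were divided among them. That row had a log2 fold change of 1.93 (SE 0.30, edgeR adjusted p = 0.0225). In bulk mucosa, more RNA per cell cannot be told apart from more cells of a type that expresses the genes. The summed goblet markers did not overlap either, with 22107 to 25567 CPM in the pools labelled Rbm47-IKO and 16561 to 19352 in the wt pools, nor did the enteroendocrine markers, with 163.1 to 179.9 and 228.3 to 279.3. Of the 8 goblet genes 8 were higher on average, 3 of them with no overlap, and none was called. Of the 12 enteroendocrine genes 0 were higher, 7 were lower with no overlap and 1, Ghrl, was called lower (named after its value was seen). Over all genes tested, 49.3% had a positive log2 fold change, 1.45% were called higher and 1.25% lower. Without overlap, 11.7% were higher and 11.6% lower. No goblet or enteroendocrine marker was at 0 in every pool, and the part of these cell types in the alpha class result was not tested.

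The promoters from RefSeq (GRCm38.p6, 250 bases before to 50 after the annotated start) matched Gsta1, Gsta2 and Gsta3 by symbol. The RefSeq start of Gsta2 lies inside the span given above for the gene, since the annotation used for that span also holds a start further upstream. They were searched on both strands for TGACNNNGC, the core of the antioxidant response element, GTTAAT, a half-site of the hepatocyte factor HNF1, GCGTG, the core of the xenobiotic response element, and TATAAA, the TATA box. Capitals mark the matched letters.
Gsta3 antioxidant core, 121 bases before the start (chr1:21240456-21240481, plus strand): ctcaggcaTGACATTGCatttttctt
Gsta3 HNF1 half-site on the opposite strand, 149 bases before the start (chr1:21240428-21240453, plus strand): agaaacatATTAACcaactctttagc
Gsta1 xenobiotic core, 2 bases before the start (chr9:78230659-78230684, plus strand): ctaaaggaGCGTGcacactcctctgg
Gsta2 xenobiotic core, 7 bases before the start (chr9:78347135-78347160, minus strand): ctaaagtaGCGTGcacactcctctgg
Of 32851 promoters of the same length, 12.4% held the antioxidant core, 7.1% the HNF1 half-site, 32.4% the xenobiotic core and 13.6% the TATA box. The Gsta2 promoter also held a TATA match, 246 bases before the start on the opposite strand. The windows of Gsta1 and Gsta2 were identical at 74.6% of positions, and those of Gsta1 and Gsta3 at 51.2%. A match describes letters in this window and is not a binding site, and letters outside the window were not searched.

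Gsta4, Gsta1, Gm10639 and Gsta2 lie in 1 cluster on chromosome 9, with 21307 bases between Gsta4 and Gsta1, 47238 between Gsta1 and Gm10639 and 25492 between Gm10639 and Gsta2. Neighbouring genes were examined after their values had been seen. Within 200 kilobases of the members the tables hold 36 other genes, of which 12 were tested and Gm10639 was not, with a median log2 fold change of -0.014. Before Gsta4 on chromosome 9, Ick differed by -0.25, Rn7sk by -0.11 and C920006O11Rik by 0.19 on the log2 scale (edgeR adjusted p = 0.407, 0.923 and 0.87). Beyond Gsta2, Cgas differed by 0.67, Mto1 by -0.23 and Eef1a1 by 0.23 (edgeR adjusted p = 0.549, 0.641 and 0.471). Of the 12 tested, 2 were called, where 2.7% of all genes tested were. They were Slc17a5, a lysosomal sialic acid transporter beyond Gsta2, at -1.14 (edgeR adjusted p = 0.0165), and Tram2 on the upstream side of Gsta3, at 1.13 (edgeR adjusted p = 0.0089). Slc17a5 kept its call in 11 of 12 alternatives with all pools and in 2 of 6 fits without 1 pool, and Tram2 in 12 and 4. Tmem14a, between Tram2 and Gsta3, had -0.24 (edgeR adjusted p = 0.792).

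The genes nearest in pattern were found by the root mean square distance of log2 CPM over the 6 pools, each gene centred on its mean, among 9768 genes with a mean of 5 CPM or more. Gsta3 and Gsta4 were each other's nearest gene, at a distance of 0.164. For Gsta3 the next were Ces1f, a carboxylesterase, at 0.254 and Ciart, a circadian repressor, at 0.303, with Gsta1 in place 4 at 0.332. For Gsta4 they were Akr1c13, an aldo-keto reductase, at 0.199 and 1700016C15Rik at 0.206, with Gsta1 in place 4. Gsta1 was nearest to 1700016C15Rik at 0.133, Akr1c13 at 0.148 and Aadac, a microsomal deacetylase, at 0.162, with Gsta4 in place 5 and Gsta3 in place 16. Their log2 fold changes ranged from 1.68 for 1700016C15Rik to 2.11 for Ces1f, and all 5 were called (edgeR adjusted p = 0.0087 to 0.0484). The calls of Akr1c13 and 1700016C15Rik were kept in 7 and 9 of 12 alternatives with all pools, and each in 1 of 6 fits without 1 pool. Those of Aadac, Ces1f and Ciart were kept in 11, 10 and 12 of 12, and in 3, 4 and 4 of 6. The pools of these genes were split like those of the members, which the measure itself selects.

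**Figure D4:**
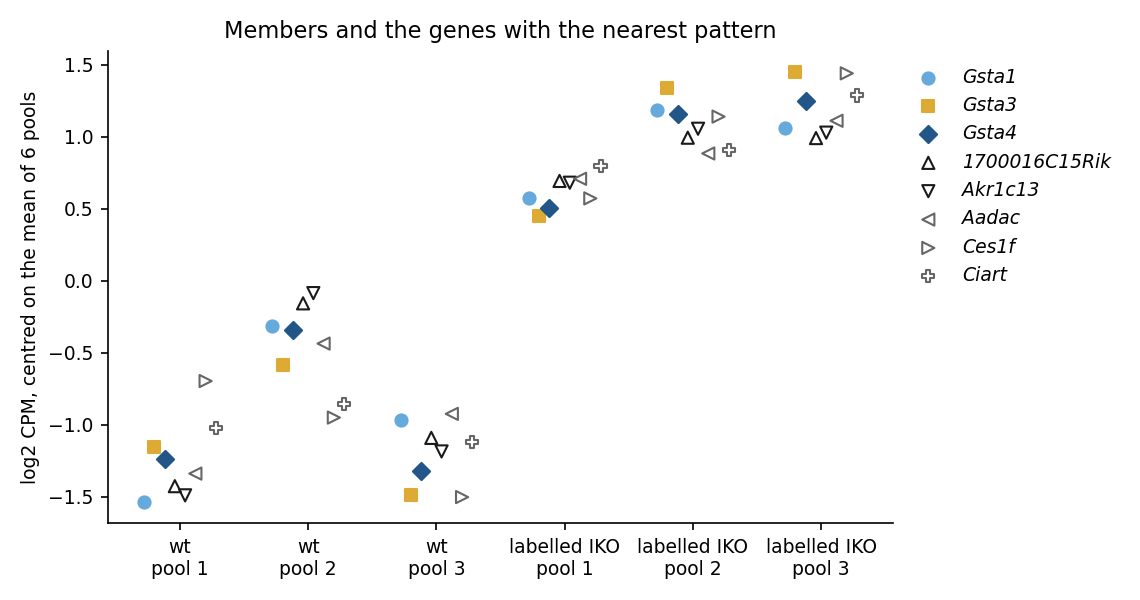
Log2 CPM centred on the mean of the 6 pools (vertical axis) for Gsta1, Gsta3 and Gsta4 (filled) and for the genes nearest to them in pattern (open), by pool. The members lie above 0 in each pool labelled Rbm47-IKO and below 0 in each wt pool, with wt pool 2 the least low. Ces1f and Ciart are low in wt pool 2 as well.

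Lists of related genes were described by the same fit. Of 110 tested genes in the lists, 5 were called higher and 1 lower, 70 had a positive log2 fold change, and the median was 0.17. Over all genes tested, 1.45% were called higher and 1.25% lower, 49.3% had a positive value and the median was -0.0059. An unadjusted edgeR p under 0.05 was found for 16.8% of all genes tested, DESeq2 called 7.57% and limma-voom 2.62%, and 11.7% were higher and 11.6% lower with no overlap between groups. With no overlap, 6 of 17 synthesis and recycling genes were higher and 1 lower, and of 7 conjugate exporters 3 and 1. Of 14 aldehyde enzymes 4 were higher and 3 lower, and of 20 genes in the NRF2 list 6 and 1. The 11 intestinal transcription factors had 5 and 0, and the 6 peroxidases 0 and 1. For 7 other cytosolic and mitochondrial transferases the counts were 0 and 2, and for 6 microsomal ones 0 and 0. Among other glutathione transferases no gene was called by edgeR with TMM and 6 pools. The mu class, another cytosolic class, had 7 of 7 genes with a positive value and a median log2 fold change of 1.02. Of these, 6 had an unadjusted p under 0.05, DESeq2 called 2 and limma-voom called 0, and 3 were higher with no overlap. edgeR called 3 of the 7 with the smooth muscle covariate, 3 without wt pool 2 and 1 with the replicate block, fits in which it called 711, 431 and 100 genes in all. Gstm1 had 38.4, 69.0 and 75.3 CPM against 10.7, 36.2 and 19.4, and a log2 fold change of 1.46 at an edgeR adjusted p of 0.135. Gstm3, with 63.5, 135.2 and 94.1 CPM against 25.8, 64.6 and 34.7, overlapped at 1 pool (log2 fold change 1.23, edgeR adjusted p = 0.15). In both, wt pool 2 was the highest wt pool, as for Gsta1, Gsta3 and Gsta4.

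Other cytosolic and mitochondrial transferases had 7 tested genes and a median of -0.063. Of these, 2 had an unadjusted p under 0.05, and DESeq2 called 1 and limma-voom 0. edgeR called 1 with the smooth muscle covariate and 1 without wt pool 1. Gsto1 had a log2 fold change of -0.80 and Gstk1 one of 0.48 (edgeR adjusted p = 0.0889 and 0.423). The pi class genes Gstp1, Gstp2 and Gstp3, and Gstt4, were listed at 0 in every pool. The handling of multiply mapped reads is not given, so that a count of 0 does not by itself show an absence of RNA. The 6 microsomal transferases had a median of -0.21, and 0 had an unadjusted p under 0.05, with 0 calls by DESeq2 and limma-voom. Mgst3 had 0.66 and Mgst2 -0.17 (edgeR adjusted p = 0.382 and 0.754). The 6 glutathione peroxidases had a median of -0.17, with 2 unadjusted p under 0.05 and 1 and 0 calls by DESeq2 and limma-voom. Gpx2, the gut enzyme, had 0.93 and Gpx1 -0.42 (edgeR adjusted p = 0.246 and 0.163).

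Genes that supply glutathione and carry off its conjugates had 1 call in each list. Of 17 genes of synthesis and recycling, 12 had a positive value, with a median of 0.26. Slc3a2, the heavy chain of the cystine and amino acid exchangers, rose from 355.7 ± 28.6 to 578.7 ± 36.0 CPM (SD, n = 3), a log2 fold change of 0.70 at an edgeR adjusted p of 0.0264. Slc7a11, the cystine light chain in the same list, had 2.85 CPM in the pools labelled Rbm47-IKO against 3.71 in the wt pools. Its log2 fold change was -0.38 (edgeR adjusted p = 0.644, named after its value was seen). Anpep, a brush border peptidase, had 0.52 (edgeR adjusted p = 0.107). Gclc and Gclm, chosen after their values were seen, encode the subunits of the rate-limiting synthetic enzyme and had 1.03 and -0.49 (edgeR adjusted p = 0.0956 and 0.0896). Of 7 conjugate exporters, 6 had a positive value, with a median of 0.26. Abcc3, the basolateral exporter, rose from 77.7 ± 7.84 to 141.9 ± 19.4 CPM (SD, n = 3), a log2 fold change of 0.87 at an edgeR adjusted p of 0.0221. Abcc2, the apical exporter, had 0.57 (edgeR adjusted p = 0.12). DESeq2 called 5 genes of synthesis and recycling and 2 exporters, and edgeR called 0 of either list with the replicate block (6 and 3 with an unadjusted p under 0.05) or the Y-linked covariate (5 and 3). Slc3a2 kept its call in 9 of 12 alternatives with all pools and in 1 of 6 fits without 1 pool, and Abcc3 in 10 and 2.

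Aldehyde enzymes, which share substrates with Gsta4, had calls in both directions. Of 14 tested, 8 had a positive value, and the median was 0.064. Cbr3, a carbonyl reductase, rose by a log2 fold change of 2.11 from 0.466 ± 0.147 to 2.03 ± 0.807 CPM (SD, n = 3, edgeR adjusted p = 0.043), and Aldh2, the mitochondrial dehydrogenase, rose by 0.78 (edgeR adjusted p = 0.0191). Aldh3a2, the microsomal fatty aldehyde dehydrogenase, fell from 245.2 ± 23.9 to 117.9 ± 10.6 CPM (SD, n = 3), a log2 fold change of -1.06 at an edgeR adjusted p of 0.01. Cbr3 kept its call in 8 of 12 alternatives with all pools and in 1 of 6 fits without 1 pool (edgeR adjusted p up to 0.216), Aldh2 in 10 and 2, and Aldh3a2 in 12 and 3. DESeq2 called 6 of these genes.

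Among NRF2, KEAP1 and other NRF2 targets, 17 of 20 had a positive value, the median was 0.20, and 1 was called. DESeq2 called 5, 4 of them higher, and 6 had an unadjusted edgeR p under 0.05. The called gene was Nqo1, a quinone reductase, which had 40.6 to 58.1 CPM in the pools labelled Rbm47-IKO and 14.6 to 21.1 in the wt pools, a log2 fold change of 1.55 (SE 0.19, edgeR adjusted p = 0.0119). Its call was kept in 12 of 12 alternatives with all pools and in 3 of 6 fits without 1 pool. Nfe2l2, which encodes NRF2, and Keap1, its repressor, both chosen after their values were seen, each had 0.22 (edgeR adjusted p = 0.485 and 0.384). Tkt, a transketolase, had 0.15 (edgeR adjusted p = 0.696). Of the 15 xenobiotic receptors and P450 targets, 3 had a positive value, with a median of -0.48. edgeR called none of these 15 with TMM and 6 pools, 5 with the smooth muscle covariate, 2 without wt pool 2, and 1 each with upper quartile or library size scaling, both other filters, the robust fit, the replicate block and without wt pool 1. Of them, 7 had an unadjusted p under 0.05, DESeq2 called 6 and limma-voom 0, and 8 were lower with no overlap. Cyp3a13 was at -0.69 and Cyp3a11 at -0.80 on the log2 scale (edgeR adjusted p = 0.0597 and 0.0721), against the direction of the alpha class. Cyp3a13 passed in 6 of the 12 alternatives that kept all pools. Of 11 intestinal transcription factors, 10 had a positive value, with a median of 0.27. edgeR called none with TMM and 6 pools, and 1 each with library size scaling, with the smooth muscle covariate and without wt pool 2. Of these, 6 had an unadjusted p under 0.05, with 2 and 0 calls by DESeq2 and limma-voom. Hnf4a had 0.43 and Hnf4g -0.27 (edgeR adjusted p = 0.276 and 0.421).

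**Figure D5:**
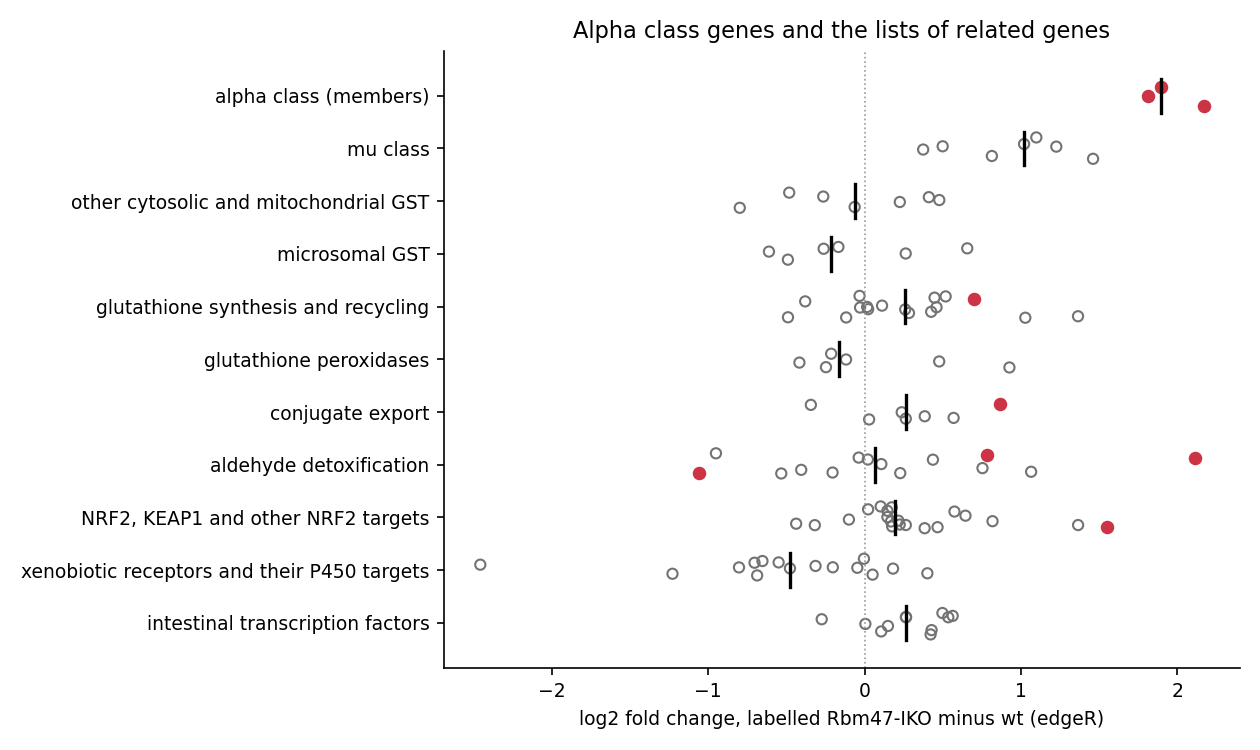
Log2 fold change, pools labelled Rbm47-IKO minus wt (horizontal axis), of the 3 tested alpha class members and of the genes in each related list (rows, points are genes). Filled points passed an adjusted p of 0.05 or less, and vertical bars are medians. The members lie between 1.81 and 2.17, and the mu class median of 1.02 is the highest of the other lists.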

How the data were processed

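The authors deposited, for each of 6 pools, the count of reads per Ensembl gene, not normalized, with CPM and RPKM columns. The CPM and RPKM of the authors were recomputed from the counts, differed by less than rounding, and were not used further. The submitters' processing notes name STAR 2.5.1a, Subread featureCounts 1.4.6-p5 and GRCm38, and the handling of strand and of multiply mapped reads is not given in the sources used here. Of 38561 genes, 36639 were paired with a symbol in GENCODE M21, and the others held 0.369% of the counts. Genes past filterByExpr of edgeR 4.0.16 (16425) were scaled by TMM and tested with glmQLFTest on the label (R 4.3.3, limma 3.58.1, DESeq2 1.42.0), with the study's threshold (adjusted p of at most 0.05, Benjamini-Hochberg). Single values were compared by exact permutation over pools (Python 3.11.15, scipy 1.17.1). No 2 pools had identical counts. Mice are not separate replicates here, so that p-values measure the spread between pools.

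Alternatives were other scalings, filters, tests, covariates, a replicate block, leaving out each pool, and an offset for GC content (lowess span 0.3) chosen after the data were seen. The members and the lists were chosen with earlier results of these data known. Genes named were the members and their relative, Rbm47, up to 6 called genes of each list or, with fewer than 2 called, its genes of highest mean CPM up to 2 in all, and the 3 genes nearest each member (prior count 2). Genes named outside this rule were chosen after their values were seen. On 3 simulated sets of this comparison, with 200 of 16425 genes changed, edgeR called 71.6% of genes changed 4-fold and 33.6% of those changed 2-fold, and 7.01% of its calls were unchanged genes.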

Additional observations from a re-analysis of the deposited data

How the results depend on the processing

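Gsta1, Gsta3, Gsta4 and their sum kept their direction under every alternative run, with limits set by 3 pools a group and, for Gsta2, by counts at the floor. The calls of the 3 genes also held with RLE, upper quartile and library size scaling, both other filters, DESeq2, limma-voom, the robust fit, the smooth muscle covariate and the GC offset. With the Y-linked covariate the log2 fold changes of Gsta1, Gsta3 and Gsta4 were 1.57, 1.96 and 1.69 and none was called. Without 1 pool they ranged from 1.57 to 2.18, 1.99 to 2.46 and 1.73 to 2.28, and the summed class from 1.78 to 2.30 with 1 of 6 calls kept (edgeR adjusted p = 0.0124 to 0.121). Rbm47 passed with library size scaling (0.41) and with DESeq2 (0.41). The cause of these differences was not tested.

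Pool numbers are shared between groups, but deviations from the group means correlated at 0.408, -0.0026 and -0.277 for pools 1, 2 and 3, so that the numbers were not taken to pair the pools. With the replicate block, 100 genes were called against 443, and Gsta3 (log2 fold change 2.15) had an edgeR adjusted p of 0.053. The count of genes called was 1243 with DESeq2, 711 with the smooth muscle covariate, 270 with the GC offset and 59 with the Y-linked covariate, and ranged from 0 to 431 without 1 pool. The 0 came without Rbm47-IKO pool 2, where 1729 genes had an unadjusted edgeR p under 0.05. It was 32 without Rbm47-IKO pool 1, 119 without pool 3 and 11 without wt pool 3. Related list genes called were 30 with DESeq2, 21 with the smooth muscle covariate and 2 with the Y-linked covariate, against 6, and ranged from 0 to 13 without 1 pool. The counts of 0 came without Rbm47-IKO pool 1, Rbm47-IKO pool 2 or wt pool 3, where 39, 32 and 40 had an unadjusted edgeR p under 0.05. Mgst2, which was never called, ranged from -0.33 to 0.032 without 1 pool, the positive value without wt pool 1. The log2 ratios of members and of Gsta2 moved by less than the SDs of both groups combined (root of the summed squares), although Gsta1 over Gsta4 ranged from -0.22 to 0.11 and Gsta2 over Gsta3 from -0.051 to 0.93 without 1 pool. GC content was 47.5%, 47.4%, 40.4% and 49.2% in Gsta1, Gsta2, Gsta3 and Gsta4, against a median of 49.8% over tested genes.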

Other observations

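The primer pairs listed by the study for alpha class genes were matched to the GENCODE M21 transcripts, since they show which part of a member a qPCR reads. Sequences are 5′ to 3′ with no mismatch allowed.
Gsta3 forward (chr1:21262832-21262852): aggctgagcagggctgatatt
Gsta3 reverse (chr1:21262874-21262893): gggtccagctcttccacatg
Gsta4 reverse (chr9:78209090-78209111): cgggttgcaggaacttcttaat
The Gsta3 pair lies in the coding part of exon 6 and spans 62 bases. The Gsta4 pair spans 63 bases, with a forward primer across exons 6 and 7 and the reverse primer in exon 7. Both pairs matched 1 gene each, with both primers exact. A second pair listed under the name Gsta3 had its exact match in Gata3, a transcription factor gene, in exon 6 (chr2:9858558-9858616, minus strand), with a product of 59 bases, and in no alpha class gene.
gacccgaaaccggaagatgt and gcgcgtcatgcacctttt are its forward and reverse primers. Gata3, named after this match was seen, had 14, 25 and 18 counts in the pools labelled Rbm47-IKO and 15, 18 and 20 in the wt pools.

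Gm7094, the next gene downstream of Gsta3 at chromosome 1, 21272338 to 21273082, had 4, 8 and 7 counts in the pools labelled Rbm47-IKO and 0, 0 and 1 in the wt pools. It did not pass the filter on low counts and was named after its values were seen.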
